A study of Homo sapiens with 6 samples.

Results

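The genes described here encode the chaperonin CCT, also called TRiC, and were followed in Saos-2, a human cell line established from an osteosarcoma. They were chosen by symbol as TCP1, CCT2, CCT3, CCT4, CCT5, CCT6A, CCT7 and CCT8, and all 8 were among the 13439 genes of the table. RNA-seq libraries were made from cells held for 24 h in 0.20 µM AIL (3 replicates) or in DMSO, the solvent control (3 replicates). AIL is ailanthone, a quassinoid of the tree Ailanthus altissima, and the labels call this dose its IC50. Cells of both groups grew in the same DMEM medium with fetal bovine serum. The labels speak of biological replicates without saying what separated the cultures, so p-values measure the spread between these libraries. Levels are the authors' TMM-normalized per-million read counts (CPM).

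CCT is a cytosolic folding machine built of stacked rings, each ring holding 8 different subunits, one from each of these genes. It binds unfolded actin and tubulin and many beta-propeller proteins in its cavity, and ATP hydrolysis by the subunits closes a built-in lid over the client. Prefoldin hands nascent actin and tubulin chains to it, and phosducin-like proteins act as its cofactors.

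Promoter windows of RefSeq (GRCh38.p14), cut to the 250 bases before the start used there, were matched for 7 of the 8 genes, without CCT6A. They were searched on both strands for paired heat shock elements (GAANNTTC or TTCNNGAA), to which heat shock factors bind, and for the CCAAT box (CCAAT or ATTGG), to which NF-Y binds. Of 27305 windows, 11.7% held the pair and 33.0% a CCAAT box. Among the subunits, TCP1 held the pair and TCP1, CCT2, CCT3 and CCT8 a CCAAT box. No match lay in the windows of CCT4, CCT5 and CCT7. In GENCODE 29, 72 to 173 of the 250 bases of each window are exon of the gene itself, and in CCT5 all 159 such bases are coding. The windows therefore do not lie wholly before the gene starts of that annotation. The windows of CCT4, TCP1 and CCT3 also hold 119, 41 and 40 exon bases of other genes. Whether the matches lie within such exon bases was not worked out. Also searched on both strands were the GC box GGGCGG, in 42.3% of all windows and 4 of the 7, the E-box CACGTG, in 6.49% and 0, the ETS motif CCGGAAGT, in 3.64% and 1, and the TATA box TATAAA, in 11.1% and 0. A match is a description of letters and not a shown binding site. Stretches of 30 bases around the heat shock and CCAAT matches are shown with the motif in capitals, each 5′ to 3′ on the strand of its gene.
TCP1, heat shock pair, chr6:159789815-159789844, minus strand: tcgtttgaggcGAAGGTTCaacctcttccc
TCP1, CCAAT box, chr6:159789740-159789769, minus strand: catcggctatctaATTGGacaaaaatgccg
CCT2, CCAAT box, chr12:69585355-69585384, plus strand: ggcccgtggggctCCAATcaaaatgggacg
CCT3, upstream CCAAT box, chr1:156338351-156338380, minus strand: actaaggctgtcaATTGGtctgtttttgtg
CCT3, downstream CCAAT box, chr1:156338310-156338339, minus strand: gatgggtgcggtgATTGGcgactaccttga
CCT8, CCAAT box, chr21:29073695-29073724, minus strand: aaagggtgggctaATTGGagagccaggaag

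Depth, read from the step that 1 read makes in the low values, was 35910000 to 38050000 TMM-scaled reads in the AIL libraries and 32540000 to 35830000 in the DMSO libraries. Of the osteoblast lineage markers, RUNX2 stood at 4.48 to 5.04 CPM under AIL and 4.36 to 4.95 CPM under DMSO. SPARC and BGLAP did not exceed 0.28 CPM in any library, and the others are not reported here. Of 13 markers of other cell types only CDH5 and VWF could be read, at 0.16 CPM or less. The 13 mitochondrially encoded transcripts, kept as a sign of RNA quality, summed to 3600 to 3726 CPM under AIL and 4205 to 4374 CPM under DMSO. By the test described below 10 of them were lower, beside 25.9% of all tested genes, and 3 did not pass. Their part in the results below was not tested.

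Of the 8 subunit genes, 6 rose and TCP1 fell under AIL, while CCT4 did not pass the test. CCT5, CCT7 and CCT8 rose by 21.3, 23.1 and 21.8%, CCT6A by 11.7%, CCT3 by 7.42% and CCT2 by 4.49%. TCP1 fell by 4.14%, and the mean of CCT4 differed by -2.36%. The summed level of the 8 transcripts was 6507 ± 119 CPM in AIL cells and 5794 ± 43.5 CPM in DMSO cells (SD, n = 3), which is 12.3% more under AIL. Of the summed CPM of all listed genes they made up 0.743 to 0.764% under AIL and 0.680 to 0.687% under DMSO, a somewhat smaller contrast. Differences were tested with limma on log2(CPM + 1) over the 11069 genes that averaged 1 CPM or more, a scale that understates the change of low genes, and a Benjamini-Hochberg adjusted p under 0.05 counted as a call. By that rule 28.2% of all tested genes were higher, 25.9% lower and 54.1% called in either direction, so a call is common in this comparison. The median log2 difference, AIL minus DMSO, was 0.13 over the 8 subunits and 0.0083 over all tested genes. With quantile normalization the median of the 8 was 0.050, with 4 subunits called higher and 2 lower. In bulk RNA, fewer cells of a kind and less RNA per cell cannot be told apart.

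**Figure D1:**
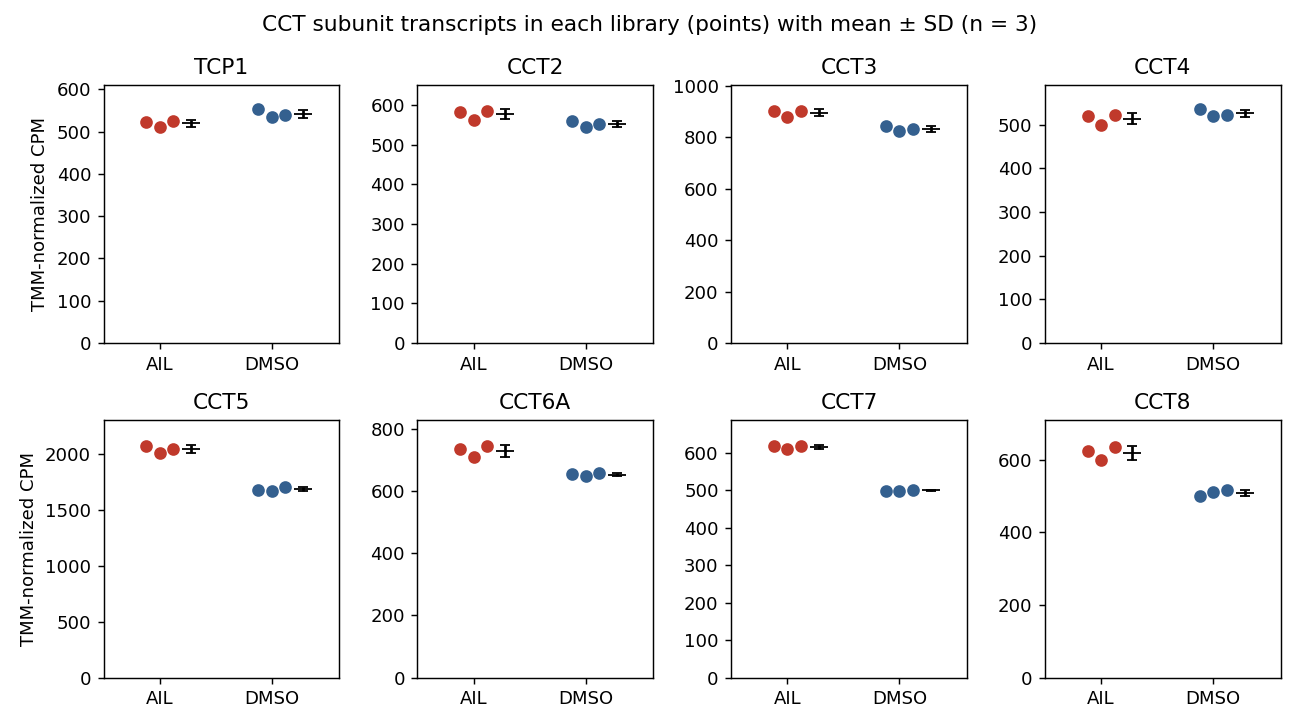
TMM-normalized CPM (vertical axes, from 0) of each CCT subunit gene in the 3 AIL and 3 DMSO libraries. Points are libraries in the order of replicates 1 to 3, and the black marks are mean ± SD. CCT2, CCT3, CCT5, CCT6A, CCT7 and CCT8 are higher in all AIL libraries than in any DMSO library, CCT2 narrowly. TCP1 is lower in all AIL libraries, while CCT4 overlaps between the groups.

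CCT7, which encodes the eta subunit, had 617.4, 609.4 and 618 CPM in AIL replicates 1, 2 and 3, against 498.8, 499.4 and 500.05 CPM in DMSO replicates 1, 2 and 3. The groups lay far apart compared with their spread. The log2 difference was 0.30 (SE 0.0229, 95% interval 0.25 to 0.35, limma adjusted p = 1.03e-08), above that of 91.0% of tested genes. The DMSO libraries differed by a coefficient of variation of 0.125%, less than the 0.718% that counting these reads gives by itself.

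CCT8, the theta subunit gene, had 625.05, 597.7 and 634.8 CPM in the AIL libraries and 498.9, 509.6 and 516.4 CPM in the DMSO libraries. Here too no DMSO library reached an AIL library, although AIL replicate 2 stood below its group. The log2 difference was 0.28 (SE 0.0269, 95% interval 0.23 to 0.34, limma adjusted p = 1.32e-07). CCT5, the epsilon subunit gene, took the most reads of the 8, with 2070.5, 2002 and 2042 CPM in the AIL libraries and 1676, 1666 and 1699 CPM in the DMSO libraries. Its groups did not overlap, and the log2 difference was 0.28 (SE 0.025, 95% interval 0.23 to 0.33, limma adjusted p = 6.88e-08). With quantile normalization the difference of CCT5 was 0.11 (limma adjusted p = 5.47e-05), and those of CCT7 and CCT8 were 0.26 and 0.23.

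CCT6A, which encodes the zeta subunit, had 734.4, 708.7 and 746.6 CPM under AIL and 653.6, 648 and 658.1 CPM under DMSO. The rise was about the middle of the family, at 0.16 on the log2 scale (SE 0.0253, limma adjusted p = 4.43e-05), and at 0.059 with quantile normalization (limma adjusted p = 0.0270). Its paralog CCT6B, whose product is known mainly from testis, was listed at 0.08 to 0.41 CPM under AIL and 0.17 to 0.24 CPM under DMSO and was too low to test. CCT3, the gamma subunit gene, had 904.5, 879.7 and 901.2 CPM under AIL and 844.2, 823.5 and 832.2 CPM under DMSO. The log2 difference of CCT3 was 0.10 (SE 0.0241, limma adjusted p = 0.00157), and the sign turned with quantile normalization (-0.040, limma adjusted p = 0.107).

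CCT2, the beta subunit gene, had 582.2, 561.9 and 585.4 CPM under AIL and 559.3, 543.7 and 552.2 CPM under DMSO. The groups came within a few CPM of each other without overlapping. The log2 difference was 0.063 (SE 0.0251, limma adjusted p = 0.0418). The call was lost without AIL replicate 1 or 3 or without DMSO replicate 1, 2 or 3, with limma adjusted p-values of 0.115, 0.0867, 0.0598, 0.177 and 0.0887 in that order. It was also lost with median-of-ratios scaling (0.0647) and with quantile normalization (log2 difference 0.041, limma adjusted p = 0.0960).

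TCP1, the alpha subunit gene from which the complex took its first name, was the member that fell. It had 522.65, 510.7 and 525.2 CPM under AIL and 552.8, 534.2 and 538.9 CPM under DMSO. All AIL libraries lay below all DMSO libraries, by a log2 difference of -0.061 (SE 0.0246, 95% interval -0.11 to -0.0091, limma adjusted p = 0.0451). The call was lost without AIL replicate 1 or 2 or without DMSO replicate 1, 2 or 3, with limma adjusted p-values of 0.0648, 0.119, 0.209, 0.0657 and 0.0774 in that order. In the annotation, 8.05% of the exon bases of TCP1 are also exon of ACAT2 on the opposite strand. ACAT2, an enzyme gene of acetoacetyl-CoA synthesis, averaged 130.6 ± 1.73 CPM under AIL and 196.5 ± 2.66 CPM under DMSO (SD, n = 3). The part of ACAT2 reads in the value of TCP1 was not tested.

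CCT4, the delta subunit gene, had 520.3, 499.1 and 521.6 CPM under AIL and 535.3, 520.02 and 522.9 CPM under DMSO. It was the member whose groups overlapped, and 7 of 8 did not overlap, beside 60.1% of all tested genes. The log2 difference of CCT4 was -0.035 with a 95% interval of -0.088 to 0.019 (limma adjusted p = 0.268), and with quantile normalization it passed the test as lower (-0.060, limma adjusted p = 0.0217).

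**Figure D2:**
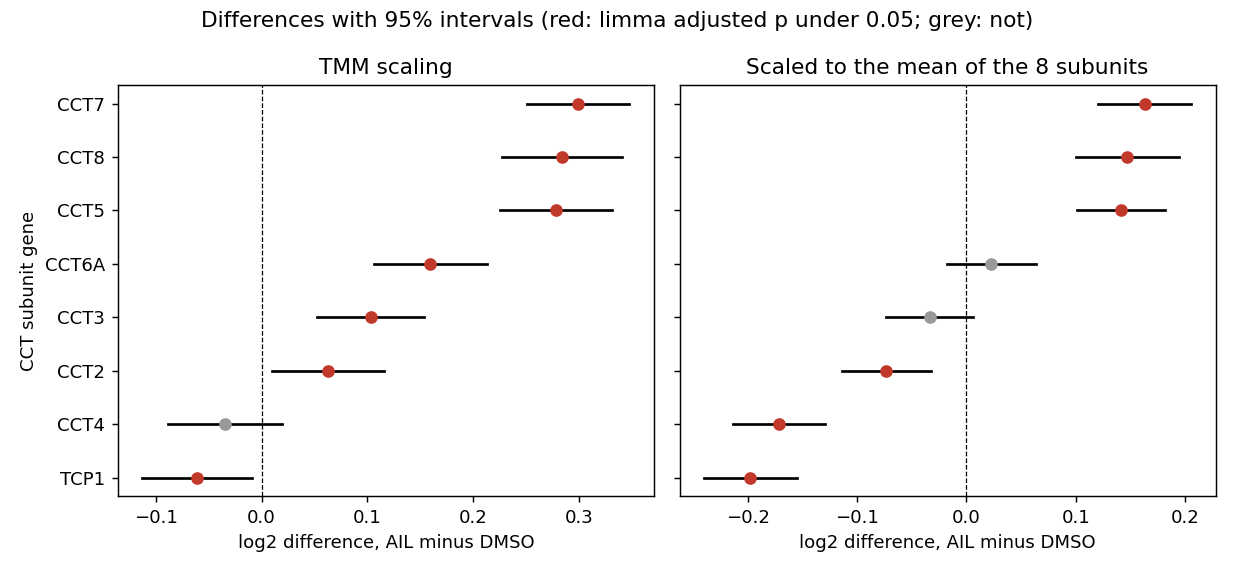
Log2 difference, AIL minus DMSO, of each subunit with its 95% interval (horizontal axes), as deposited with TMM scaling (left) and after scaling each library to the mean of the 8 subunits (right). CCT7, CCT8 and CCT5 lie at 0.28 to 0.30 on the left and TCP1 and CCT4 below 0; on the right the same trio lies above 0, and CCT2, CCT4 and TCP1 lie below it.

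The subunits differed among themselves. To test this without the authors' scaling, each library was scaled to the mean log2 level of the 8 subunits and limma was run again over all tested genes. Relative to that mean, CCT7 was higher by 0.16 (adjusted p = 1.54e-05), CCT8 by 0.15 (adjusted p = 8.54e-05) and CCT5 by 0.14 (adjusted p = 3.04e-05). TCP1 was lower (-0.20, adjusted p = 3.12e-06), as were CCT4 (-0.17, adjusted p = 9.59e-06) and CCT2 (-0.073, adjusted p = 0.00454). CCT3 and CCT6A did not pass, with 95% intervals of -0.073 to 0.0064 and -0.018 to 0.064. Thus 3 of 8 were called higher and 3 lower, beside 11.6 and 50.7% of all tested genes under this scaling. Centring on the 8 places some members above 0 and others below by construction. The mean includes each gene's own value and was chosen after the values were seen, and it shows unequal change, not which gene held still.

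Ratios between subunits within a library show the same split. The ratio of TCP1 to CCT7 was 0.847, 0.838 and 0.85 in the AIL libraries and 1.11, 1.07 and 1.08 in the DMSO libraries, so CCT7 had more reads than TCP1 in every AIL library and fewer in every DMSO library. Of the 28 pairs of subunits, the ratio did not overlap between the groups in 25. These pairs are built from the same 8 genes and are not independent. The share over pairs of other genes was not computed, and 60.1% of single tested genes did not overlap. The count is therefore only a description. The other 3 pairs were those among CCT5, CCT7 and CCT8. The ratio of CCT5 to CCT8 averaged 3.29 ± 0.0683 under AIL and 3.31 ± 0.0475 under DMSO, and that of CCT7 to CCT8 averaged 0.994 ± 0.0236 and 0.983 ± 0.0160 (SD, n = 3 each). Of the summed CPM of the 8 transcripts, CCT7 made up 9.45 ± 0.101% under AIL and 8.62 ± 0.0653% under DMSO. TCP1 made up 7.98 ± 0.0358% under AIL and 9.35 ± 0.129% under DMSO.

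Among the replicates, AIL replicate 2 was the lowest AIL library for all 8 subunits, and DMSO replicate 2 was the lowest DMSO library for 6 of 8. The coefficient of variation of a subunit was 0.777 to 3.11% within AIL and 0.125 to 1.78% within DMSO. Each subunit rested on 16200 to 78800 reads per library, for which counting error is 0.393 to 0.739%.

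Levels can be compared between genes only per length. Lengths came from the principal transcript of each gene in GENCODE 29, and the encoded proteins run from 531 to 556 residues. Per kb of transcript, CCT5 stood highest at 554.6 ± 9.39 CPM per kb under AIL and 457.2 ± 4.66 under DMSO, and CCT3 came next at 416.3 ± 6.26 and 387.6 ± 4.85 (SD, n = 3 each). CCT7 and CCT8 followed under AIL at 321 ± 2.49 and 308.8 ± 9.6 CPM per kb, above CCT2 at 282.5 ± 6.23 and CCT6A at 268.4 ± 7.11. Under DMSO CCT2 followed CCT3, at 270.3 ± 3.82, ahead of CCT7 at 260.7 ± 0.326, CCT8 at 253.5 ± 4.41 and CCT6A at 240.3 ± 1.87. TCP1 and CCT4 were the lowest in both groups, at 207.9 ± 3.11 and 203.8 ± 5.01 CPM per kb under AIL and 216.9 ± 3.86 and 208.8 ± 3.21 under DMSO. On this scale the libraries of neighbours in the order overlapped for TCP1 and CCT4 under AIL and for no other pair. Per kb of coding sequence CCT7 and CCT8 were the lowest under DMSO, at 306.6 ± 0.384 and 309.2 ± 5.38 CPM per kb, and overlapped each other. Under AIL they averaged 377.5 ± 2.93 and 376.6 ± 11.7, above CCT2 at 359.2 ± 7.92, although the libraries of CCT8 and CCT2 overlapped.

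**Figure D3:**
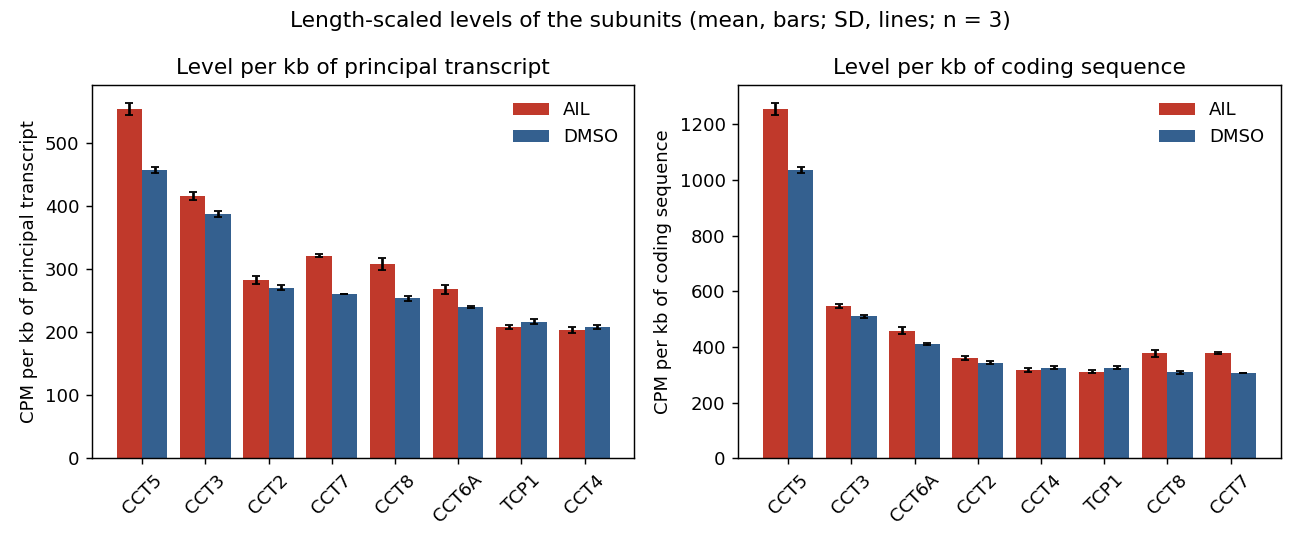
CPM per kb of principal transcript (left) and per kb of coding sequence (right) for each subunit, ordered by the DMSO level; bars are means of 3 AIL and 3 DMSO libraries and lines are SD. CCT5 is highest on both scales, and the means of CCT7 and CCT8 exceed that of CCT2 under AIL on both.

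The genes lie on 7 chromosomes, with CCT4 and CCT7 both on chromosome 2. Of the 50-base words of their transcripts, 0 to 5.35% also occur in transcripts of other genes, the most for CCT6A, TCP1 and CCT8. The gene sharing most words was the pseudogene CCT6P3 for CCT6A (3.52%), TCP1P1 for TCP1 (2.02%) and CCT8P1 for CCT8 (4.64%). Antisense transcripts overlap 30.1% of the exon bases of CCT5 and 9.72% of those of CCT4, and COMMD1 overlaps 2.86% of those of CCT4. COMMD1 averaged 20.3 ± 1.42 CPM under AIL and 15.9 ± 0.764 CPM under DMSO. Whether reads were counted by strand is not given in the sources used here.

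A CCAAT box stood in the windows of TCP1, which fell, and of CCT2, CCT3 and CCT8, which rose, and the heat shock pair in that of TCP1. The windows of CCT5 and CCT7, which also rose, held neither. Of the 250 bases of the CCT5 window 159 are coding, so the lack of matches there says little about its promoter. Whether these motifs or HSF1 bear on any change was not tested. HSF1, an activator of chaperone genes, had 74.4, 73.35 and 66.7 CPM under AIL and 51.2, 51.9 and 49.8 CPM under DMSO (log2 difference 0.48, SE 0.0403, limma adjusted p = 3.17e-08).

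Among the partners of CCT, prefoldin rose. All 6 genes of the prefoldin complex were higher under AIL, and of the 3 prefoldin-like genes UXT and PDRG1 were higher and URI1 lower, which makes 8 of 9 higher beside 28.2% of tested genes. The median log2 difference of the 9 was 0.30. PFDN1, one of the beta-type subunits, had 101.4, 97.8 and 96.55 CPM under AIL and 75.9, 75.4 and 77.1 CPM under DMSO. Its groups did not overlap, with a log2 difference of 0.37 (SE 0.0306, limma adjusted p = 2.69e-08). PFDN2, PFDN4, PFDN5 and PFDN6 rose by 0.30, 0.34, 0.31 and 0.29 on the log2 scale, and VBP1, which encodes an alpha-type prefoldin subunit, by 0.15. PDRG1 rose by 0.48. URI1, the scaffold of the prefoldin-like complex, fell by 0.078 (limma adjusted p = 0.0414). The call of URI1 was lost with quantile normalization (0.114), without AIL replicate 1 or 2 (0.122 and 0.107) and without DMSO replicate 1, 2 or 3 (0.153, 0.0529 and 0.0887).

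Of the phosducin-like cofactors, PDCL and TXNDC9 fell and PDCL3 rose. PDCL averaged 35.6 ± 0.519 CPM under AIL and 38.9 ± 0.468 CPM under DMSO, and TXNDC9 averaged 67.2 ± 1.48 CPM under AIL and 72.3 ± 0.465 CPM under DMSO (SD, n = 3). PDCL3 differed by 0.11 on the log2 scale (limma adjusted p = 0.0357), though 19.1% of its 50-base words occur in other genes. Its call was lost with quantile normalization (0.0974), without AIL replicate 1 or 3 (0.113 and 0.0530) and without DMSO replicate 1, 2 or 3 (0.123, 0.0651 and 0.0552).

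Of 12 tested genes of the obligate clients actin and tubulin, 7 fell, 2 rose and 3 did not pass, beside 25.9 and 28.2% of all tested genes. ACTB, cytoplasmic beta actin, had 2599, 2515 and 2417 CPM under AIL and 2876, 2808 and 2834 CPM under DMSO (log2 difference -0.18, SE 0.029, limma adjusted p = 5.75e-05). ACTG1, the gamma form, averaged 2515 ± 133 CPM under AIL and 2623 ± 66.6 CPM under DMSO. The adjusted p of ACTG1 was 0.136, and it was called lower with a replicate block (limma adjusted p = 0.0143) and without AIL replicate 1 (0.0128). The muscle actins ACTA1, ACTA2 and ACTC1 were below the filter, at 0.39 CPM or less in every library.

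Of 10 tested tubulin genes, 6 fell and 2 rose, beside 25.9 and 28.2% of all tested genes. TUBA1B had 2393, 2306 and 2310 CPM under AIL and 2727, 2629 and 2595 CPM under DMSO, with no overlap (log2 difference -0.18, limma adjusted p = 3.00e-05). TUBB had 1313, 1302 and 1300.2 CPM under AIL and 1470.3, 1447 and 1452 CPM under DMSO (log2 difference -0.16, limma adjusted p = 2.40e-05). TUBA1C, TUBB6 and TUBB4B fell by 0.19, 0.19 and 0.15 on the log2 scale. With quantile normalization the differences were -0.30 for TUBB and -0.31 for TUBA1C. TUBG1, which nucleates microtubules, fell by 0.12, a call lost without DMSO replicate 1 (limma adjusted p = 0.0513). TUBB3 and TUBB2A rose by 0.24 and 0.14, and these genes share 33.4 and 58.7% of their 50-base words with others. The call of TUBB2A was lost without AIL replicate 1 or 2 (0.0597 and 0.0637) or DMSO replicate 3 (0.0515). With each library scaled to the mean of the 8 subunits, which moves the median of all genes to -0.13, 7 of 10 tubulins were called lower, beside 50.7% of all tested genes. Of the 9 prefoldin genes 7 were then called higher, beside 11.6% of all tested genes, and URI1 lower. Many tubulins share words, and 22.1, 25.6 and 15.6% of those of TUBA1A, TUBA1B and TUBA1C occur elsewhere. For TUBB and TUBG1 the shares were 14.2 and 19.9%.

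Beyond actin and tubulin, 2 of 14 client genes rose and 5 fell, beside 28.2 and 25.9% of all tested genes. The rises were in the mTOR complex genes RPTOR (log2 difference 0.49, limma adjusted p = 1.36e-07) and MLST8 (0.29, limma adjusted p = 1.29e-04), both encoding beta-propeller proteins. FZR1 and GNB4, also of the beta-propeller kind, fell by 0.28 and 0.27, VHL by 0.19, STAT3 by 0.16 and CCNE1 by 0.13. The call of CCNE1 was lost without DMSO replicate 1 or 2 (limma adjusted p = 0.0511 and 0.0591). CDC20, whose folding by CCT precedes its work in mitosis, averaged 190.3 ± 5.64 CPM under AIL and 183.1 ± 1.82 CPM under DMSO. CDC20 did not pass (limma adjusted p = 0.104), and was called higher with quantile normalization (0.00930), with the replicate block (0.0410) and without AIL replicate 3 (0.0119).

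Tubulin released by CCT is finished by the tubulin folding cofactors, of which 4 of 7 rose and 1 fell, beside 28.2 and 25.9% of all tested genes. TBCC, which acts in the last step of the assembly of the tubulin dimer, averaged 26.9 ± 0.930 CPM under AIL and 19.3 ± 0.616 CPM under DMSO (log2 difference 0.46, limma adjusted p = 3.82e-07). ARL2, TBCA and TBCB rose by 0.28, 0.21 and 0.15, and TBCE fell by 0.10 (limma adjusted p = 0.0477). The call of TBCE was lost without AIL replicate 1 or 2 (0.147 and 0.106) or DMSO replicate 2 or 3 (0.171 and 0.130). TBCD and TBCEL did not pass.

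**Figure D4:**
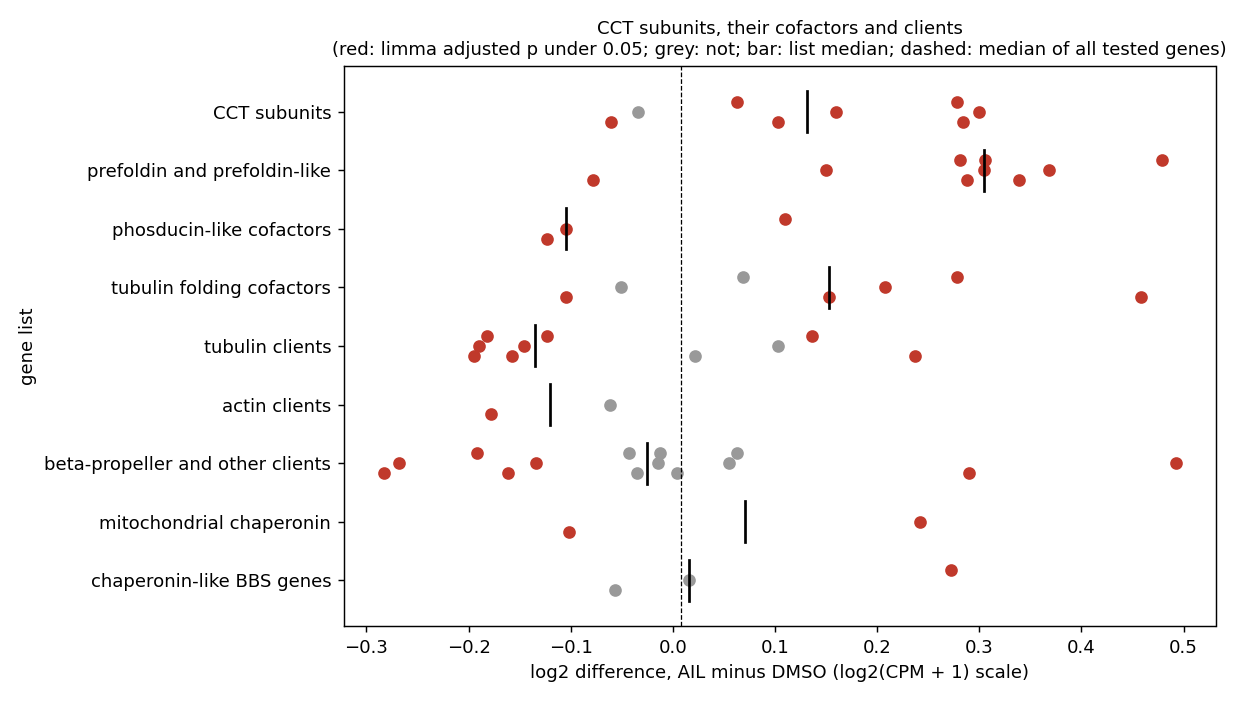
Log2 difference, AIL minus DMSO (horizontal axis), of log2(CPM + 1) for each tested gene in the CCT list and the 8 lists of cofactors, clients and related chaperonins (rows). Red points passed the test and grey ones did not, black bars are list medians, and the dashed line is the median of all tested genes at 0.0083; prefoldin has its median at 0.30 and the tubulins at -0.13.

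Among tested genes averaging 20 CPM or more, those whose log2 profile over the 6 libraries was most like the mean profile of the subunits were NBR1, PRRC2A, DCTN5, PPP1R11 and HIST1H2BG, with Pearson's r of 0.9992, 0.999, 0.9988, 0.9987 and 0.9985. Of 7098 candidates 836 had an r above 0.95, so such likeness is common. NBR1, an autophagy receptor gene, averaged 159.9 ± 4.08 CPM under AIL and 142.7 ± 0.762 CPM under DMSO (SD, n = 3). Within the family, r with the mean profile was 0.9323 to 0.9965 for the 6 genes that rose, and it was -0.711 for TCP1 and -0.376 for CCT4. That profile includes each gene's own values and follows the difference between the groups, so these r values are only a description.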

How the data were processed

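Total RNA entered an Illumina TruSeq preparation, per the labels. The authors deposited 1 table of TMM-normalized CPM, per the file name, printed to 2 decimals. RSEM and edgeR 3.8.5 are named in the submitters' processing notes without a role, and no aligner, build, annotation or strand setting is named in the sources used here. TMM takes most genes as unaltered, so a common shift of nearly all transcripts would not appear. Low values were multiples of a step worth 1 read, of 0.0263 to 0.0307 CPM. Of them 99.9% or more lay within 0.2 reads of a whole number, and 52.3 to 65.2% within 0.1 reads. The rule set for a count test was 95% within 0.1 reads. Rounding to 2 decimals alone can move a value by more than 0.1 reads, so scaled counts could not have met that rule. Values were therefore tested as log2(CPM + 1), without a conclusion on whether they are scaled counts.

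Tests used limma 3.58.1 in R 4.3.3 with an intensity trend, two-sided, without covariates, adjusted over the 11069 genes averaging 1 CPM or more. Each log2 difference is AIL minus DMSO, and percent changes are of mean CPM. The members, gene lists and tests were chosen with earlier results of these data known. Genes were named by a rule taking all members, the genes of the partner lists and the 5 most alike in profile; ACAT2 and COMMD1 are named because they overlap members. On simulated data (AIL against DMSO, 11038 genes), 26% of genes changed by 0.2 on the log2 scale were recovered, 86% at 0.4 and 100% at 0.8 and 1.2. Of the calls, 2.52% were unchanged genes. In the simulation only 200 genes were changed, and a single dispersion from the DMSO replicates served both groups. In the real data 54.1% of tested genes were called and AIL replicates spread more, so these rates cannot be carried over to them.

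AIL and DMSO libraries of the same number deviated together, with correlations of 0.159, 0.133 and 0.129 across genes, against -0.179 to 0.021 for unlike numbers. Deviations were taken from the group mean of each gene, so positive values for some pairs push others below 0 and these correlations are not independent. The replicate numbers were taken as pairs from the data, not from a stated batch, and a replicate block was an alternative. Replicates of a group differed by 1.75 to 5.45 times the counting variance, so none was counted as a repeat. Other alternatives were pseudocounts of 0.1 and 5, other filters and scalings, no trend and each replicate left out. Shared 50-base words, overlaps and lengths were computed from GENCODE 29, which may differ from the authors' annotation.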

Additional observations from a re-analysis of the deposited data

How the results depend on the processing

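The direction of CCT5, CCT6A, CCT7 and CCT8 and their calls were kept under all 14 alternatives other than the scaling added later, with differences of 0.11 to 0.29, 0.059 to 0.18, 0.26 to 0.31 and 0.23 to 0.31 on the log2 scale. Calls of CCT2 and TCP1 rested on small differences. With no filter on low values, which adds genes to the adjustment, CCT2 (0.063) and TCP1 (-0.061) were no longer called, nor were they without an intensity trend (0.063 and -0.061), and 0 subunits were then called lower by limma. CCT2 was also lost with median-of-ratios scaling (0.055) and quantile normalization (0.041). With quantile normalization CCT3 turned to -0.040, CCT4 was called lower (-0.060) and 4 subunits were higher and 2 lower, with a median of 0.050 over the 8; the cause was not tested. Leaving out each replicate gave 5 to 6 subunits higher and 0 to 1 lower, 2709 to 3270 genes higher and 2527 to 2924 lower. Over these, TCP1 ranged from -0.071 to -0.047, CCT2 from 0.052 to 0.081, CCT3 from 0.095 to 0.12 and CCT4 from -0.046 to -0.014; with 2 replicates left in an arm, the spread is shared with the other arm. The replicate block changed no call of a subunit, with limma adjusted p-values of 0.0104 for TCP1 and 0.00770 for CCT2, and gave 3347 genes higher and 3121 lower. Scaling to the mean of the 8 subunits, added after seeing the data, by construction lowers the median of all genes (-0.13), with 1279 genes higher and 5608 lower. It called 3 subunits higher and 3 lower, with CCT2 at -0.073, CCT3 at -0.033, CCT4 at -0.17 and CCT6A at 0.023. The median of all genes was 0.00098 with median-of-ratios scaling and -0.0077 with quantile normalization, against 0.0083 as reported.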

Other observations

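Relatives of CCT outside the cytosolic ring were also measured. HSPD1, the mitochondrial chaperonin of the group I type, had 1553, 1540.1 and 1609 CPM under AIL and 1315, 1307 and 1352 CPM under DMSO, and rose by 0.24 on the log2 scale (limma adjusted p = 5.81e-07), or by 0.10 with quantile normalization (limma adjusted p = 3.72e-04). HSPE1, which encodes its lid, fell by 0.10, with 217.4, 215.3 and 229.7 CPM under AIL and 234.5, 236 and 240.1 CPM under DMSO (limma adjusted p = 0.00572). The pair are neighbours in the genome that share a promoter region, and 13.2 and 11.7% of their 50-base words occur in other genes. Of the chaperonin-like genes of the BBSome assembly complex, which joins CCT to Bardet-Biedl proteins, BBS12 was called higher at 5.08 ± 0.170 CPM under AIL and 4.06 ± 0.586 CPM under DMSO (limma adjusted p = 0.0137). That call was lost without DMSO replicate 2 or 3 (0.0594 and 0.0680), and MKKS and BBS10 did not pass.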
